A study of Mus musculus with 6 samples.

Results

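The 38 genes described here are the mouse zinc finger genes named Zfp900 to Zfp999 that the array annotation assigned to at least 1 probe set on its own. Membership goes by symbol: every probe set was taken whose only platform symbol is a Zfp number in this range with nothing after it, which gave 63 of 45037 probe sets that are not controls. Of these genes, 20 had 1 probe set, 11 had 2 and 7 had 3. Where a gene had several, the brightest by its mean signal over the 6 arrays represents the gene. Values of the other probe sets are given for only some of these genes. A further 7 probe sets are annotated to several genes including one in this range, and they name no gene here.

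Lung RNA of adult female F1 mice was compared between 2 crosses, with 3 arrays each, to find basal differences in expression between the genotypes. In the group called AKR_F1, AKR/J was crossed with FVB/NJ. In the group called DBA_F1, DBA/2J was crossed with FVB/NJ. Both groups therefore carried an FVB/NJ chromosome set, neither was treated before anaesthesia and death, and any allele that differs between AKR/J and DBA/2J was present in 1 copy beside an FVB/NJ allele. Nothing in the labels ties an array to an animal of its own, and p-values then measure only the spread between these samples, which may be technical. Signals are log2 values, and every difference below is AKR_F1 minus DBA_F1 on that scale, with the moderated standard error (SE) of limma. Calls are at an adjusted p under 0.05 over all 27022 tested probe sets, those with a mean above 4.72.

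Most Zfp genes encode proteins with rows of C2H2 zinc fingers, short loops that each hold a zinc ion and together read a stretch of DNA. Many also carry a KRAB domain, which binds the corepressor TRIM28. TRIM28 in turn recruits the histone methyltransferase SETDB1 and heterochromatin proteins, and the complex silences retrotransposons and nearby genes. These genes lie in tandem clusters that have grown by duplication, so that neighbours can be near-identical in sequence, and probes of array sets marked _x_at can bind transcripts of more than 1 of them.

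Lung markers were high on every array. The 12 alveolar, airway and endothelial markers had mean signals of 12.28 to 12.46 on the 6 arrays, and surfactant protein C (Sftpc) lay between 14.26 and 14.34. In 6 of the 12 the groups did not overlap, against 24.2% of all tested genes, and 1, surfactant protein B (Sftpb), was called (higher in AKR_F1 by 0.32 ± 0.06, limma adjusted p = 0.0371). Markers of other tissues differed between arrays. The 10 measured squamous and upper airway markers had means of 4.94 and 4.86 on AKR_F1 replicates 1 and 2 and of 8.16 to 8.82 on the other arrays, AKR_F1 replicate 3 included. Of these markers, Krt6a did not show the split (5.62 to 5.83 on the 6 arrays), and in Pax9 it was small. The mean of the 11 skeletal muscle markers showed the same split (5.39 and 4.78 against 8.53 to 9.21). Myh2 and Myh4, the 2 of them below the filter, did not show it. The 9 measured adipose markers had means of 6.58 to 7.45 in AKR_F1 and 8.32 to 9.31 in DBA_F1, and for each of the 9 the groups did not overlap. By limma 7 of the 9 were called, against 2.48% of all tested genes. The 8 measured thymocyte markers had means of 6.15, 5.38 and 7.14 on the AKR_F1 arrays and of 5.21 to 5.26 on the DBA_F1 arrays. The 7 cardiac muscle markers had a mean of 10.48 on DBA_F1 replicate 1 and of 8.96 to 9.37 on the other arrays. The part of these marker differences in the results below was not tested. In whole lung, fewer cells of a type and less RNA per cell cannot be told apart.

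Of the 38 genes, 29 had a representative probe set above the filter and were tested, and 9 had every probe set below it. By limma, 4 of the 29 (13.8%) were called, against 2.48% of all 13202 tested genes. By representative probe sets, Zfp979, Zfp945 and Zfp994 were higher in AKR_F1 (3 genes, where 1.42% of all tested genes were called in that direction). Zfp949 was higher in DBA_F1 (1 gene, where the share of all genes was 1.06%). The count of 3 rests on the brightest set of Zfp945. The other called set of this gene (1437127_at) differed by -0.93, and its set below the filter (1441792_at) by -0.31. When the most variable set stood for each gene, 2 members were called higher in AKR_F1 and 2 in DBA_F1. Averaging the tested sets of a gene gave 2 and 1. Counted by probe set, 6 of 34 tested members were called, against 2.62% of all tested probe sets. These were 3 higher in AKR_F1, where the share of all probe sets was 1.57%, and 3 higher in DBA_F1, where it was 1.05%. The 267 other numbered Zfp genes had 215 tested and 4 called (1.86%). These shares were not compared by a test, and the range of gene names was chosen with earlier results of these data known. The median difference over the 29 genes was 0.10, with 20 positive and 9 negative, beside a median of 0.04 over the other numbered Zfp genes and 0.02 over all tested genes. Of the 29, 3 (Zfp938, Zfp963 and Zfp979) had a group mean below the filter level, in each case the DBA_F1 mean. They thus passed the filter through their AKR_F1 values, and Zfp979 is also among the 4 called genes.

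**Figure D1:**
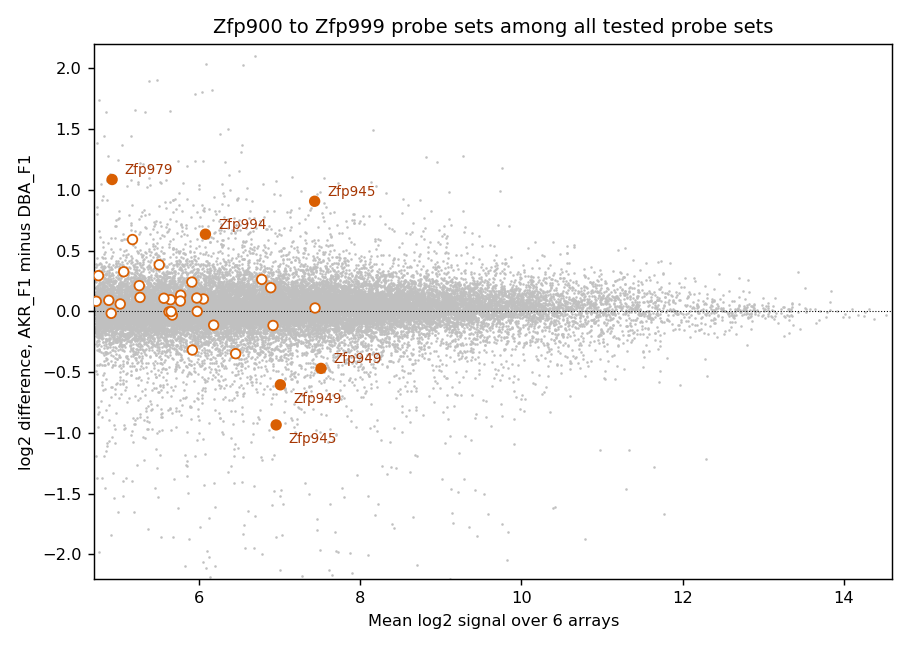
Mean log2 signal over the 6 arrays (x axis) against the log2 difference AKR_F1 minus DBA_F1 (y axis) for all 27022 tested probe sets (grey points) and the 34 tested Zfp900 to Zfp999 probe sets (orange circles, filled where called at an adjusted p under 0.05). The called members lie on both sides of 0, and Zfp945 has 1 called probe set on each side; 81 probe sets that are outside the y limits of 2.2 in either direction are not drawn.

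Zfp979, a gene of the large zinc finger cluster at the distal end of chromosome 4, had the largest difference among the tested members. Its only probe set (1428604_at) had signals of 5.42, 5.51 and 5.47 on the AKR_F1 arrays, in the order of their replicate numbers, and of 4.56, 4.29 and 4.30 on the DBA_F1 arrays. The 3 AKR_F1 arrays lay within 0.1 of each other, and all stood above all DBA_F1 arrays. The difference was 1.08 ± 0.10 (SE, n = 3 per group, limma adjusted p = 0.00321). All DBA_F1 values fell below the filter level, and since such signals may be background, the size is not exact. Leaving out any 1 of the 6 arrays kept the call. AKR_F1 replicate 3 alone differed from DBA_F1 by 1.09, which was not called with 1 array in that arm (limma adjusted p = 0.113). In the means of the squamous and of the skeletal muscle markers this array lies with DBA_F1. Its thymocyte mean (7.14) is the highest and its adipose mean (6.58) the lowest of the 6 arrays.

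Zfp945, in a zinc finger cluster on proximal chromosome 17, gave 2 called probe sets with opposite directions. The brighter one (1437128_a_at) had signals of 7.95, 7.77 and 7.94 in AKR_F1 and 7.11, 6.81 and 7.03 in DBA_F1, a difference of 0.91 ± 0.10 (limma adjusted p = 0.0065). The other (1437127_at) had 6.65, 6.36 and 6.47 in AKR_F1 and 7.55, 7.13 and 7.60 in DBA_F1, a difference of -0.93 ± 0.14 (limma adjusted p = 0.0214). In neither did the groups overlap, and the sizes were nearly equal with the sign turned. Both sets are annotated to the same source sequence, BB391874. The third probe set of the gene (1441792_at), from another source sequence, was below the filter at 4.11, 3.96 and 4.02 in AKR_F1 and 4.44, 4.24 and 4.35 in DBA_F1, a difference of -0.31 ± 0.09. The mean of the tested pair differed by -0.01 (adjusted p = 0.966), so these data give no direction for the gene as a whole. Each probe set was read as a separate measurement, and where on the transcript each one lies was not analysed here. The brighter set kept its call without any 1 of the 6 arrays (adjusted p of up to 0.0394), whereas the other set lost its call without AKR_F1 replicate 1 (adjusted p = 0.0588), AKR_F1 replicate 2 (0.0977) or DBA_F1 replicate 1 (0.0575), with differences from -1.08 to -0.85 over the 6 fits. For AKR_F1 replicate 3 alone against DBA_F1 they differed by 0.96 and -0.96, and neither was called (limma adjusted p = 0.115 and 0.245).

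Zfp994 lies in the same cluster. Its only probe set (1444589_at) had signals of 6.57, 6.35 and 6.27 in AKR_F1 and 5.81, 5.62 and 5.85 in DBA_F1, with no overlap. The difference was 0.63 ± 0.11 (limma adjusted p = 0.0303). It was not called without AKR_F1 replicate 1 (adjusted p = 0.097), AKR_F1 replicate 2 (0.11), DBA_F1 replicate 1 (0.0624) or DBA_F1 replicate 2 (0.115), with differences of 0.55, 0.66, 0.66 and 0.57. AKR_F1 replicate 3 alone differed from DBA_F1 by 0.51 and was not called (limma adjusted p = 0.331).

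Zfp949, on chromosome 9, was the only member gene called higher in DBA_F1 by its representative, and the only one with a pair of called probe sets that had the same sign. Its brighter probe set (1456518_at) had 7.26, 7.31 and 7.27 in AKR_F1 and 7.67, 7.82 and 7.77 in DBA_F1, a difference of -0.47 ± 0.06 (limma adjusted p = 0.0132). The other (1458491_at), from a different source sequence, had 6.65, 6.88 and 6.60 in AKR_F1 and 7.28, 7.32 and 7.34 in DBA_F1, a difference of -0.60 ± 0.09 (limma adjusted p = 0.0174). Neither set of values overlapped between the groups. The call of the brighter set was lost without AKR_F1 replicate 1 (adjusted p = 0.072), AKR_F1 replicate 2 (0.0594) or DBA_F1 replicate 2 (0.0611), while the difference stayed between -0.51 and -0.44 over the 6 fits. The other set lost its call without AKR_F1 replicate 1 (adjusted p = 0.0852) or DBA_F1 replicate 2 (0.0836). AKR_F1 replicate 3 alone differed from DBA_F1 by -0.48 and -0.72 in the 2 sets, and neither was called (limma adjusted p = 0.238 and 0.0825).

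**Figure D2:**
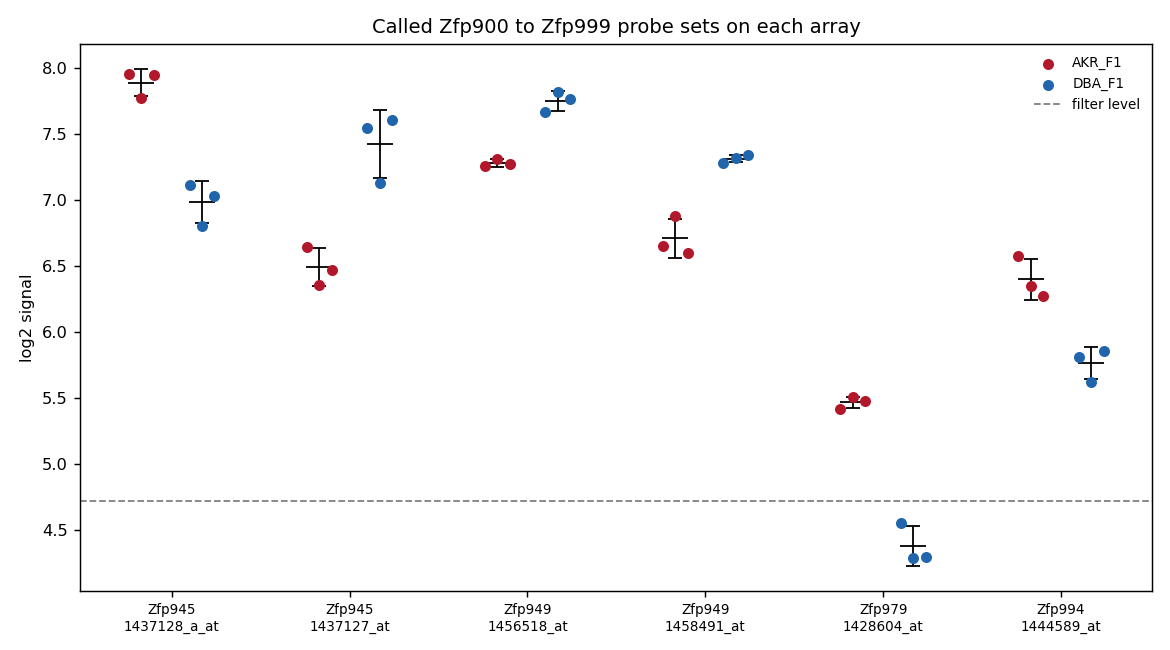
Log2 signal (y axis) of the 6 called Zfp900 to Zfp999 probe sets on each array, with 3 AKR_F1 arrays in red and 3 DBA_F1 arrays in blue, the group mean and SD in black and the filter level of 4.72 as a dashed line. The groups do not overlap in any of the 6, the Zfp945 pair runs in opposite directions, and all DBA_F1 values of Zfp979 lie below the filter level.

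The promoters of the called genes are shown with the longest sequence word shared by those of Zfp979, Zfp945 and Zfp994. This word was searched for after these genes had been called. RefSeq windows from 250 bases before to 50 after a transcript start (GRCm38.p6, the C57BL/6J reference, which is none of the strains used here) were found for 35 of the 38 genes, 42 windows in all, and not for Zfp930, Zfp934 and Zfp991. Capitals mark, on either strand, the longest word that these 3 windows have in common, TTGGGCGGGT. The 3 genes were grouped because their representative probe sets were called higher in AKR_F1, a direction that the other tested probe set of Zfp945 does not share. They also mark the ETS core CGGAAG and the CCAAT box, which reads ATTGG on the other strand and can then overlap the shared word. The windows are Zfp979 at chr4:147642459-147642758 (minus strand), Zfp945 at chr17:22867085-22867384 (minus), Zfp994 at chr17:22225565-22225864 (minus) and Zfp949 at chr9:88547770-88548069 (plus).
Zfp979: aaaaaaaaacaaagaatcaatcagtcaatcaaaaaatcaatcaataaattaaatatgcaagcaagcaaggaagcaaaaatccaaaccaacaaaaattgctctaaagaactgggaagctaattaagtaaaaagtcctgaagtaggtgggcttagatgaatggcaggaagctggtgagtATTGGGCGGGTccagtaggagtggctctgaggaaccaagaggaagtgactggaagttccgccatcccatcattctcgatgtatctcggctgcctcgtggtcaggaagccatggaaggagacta
Zfp945: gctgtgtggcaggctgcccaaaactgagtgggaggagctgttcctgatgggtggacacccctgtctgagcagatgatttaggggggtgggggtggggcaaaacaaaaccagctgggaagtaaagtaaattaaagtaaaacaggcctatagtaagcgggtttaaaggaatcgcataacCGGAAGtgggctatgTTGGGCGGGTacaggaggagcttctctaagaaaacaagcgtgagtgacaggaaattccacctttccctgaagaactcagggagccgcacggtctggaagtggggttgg
Zfp994: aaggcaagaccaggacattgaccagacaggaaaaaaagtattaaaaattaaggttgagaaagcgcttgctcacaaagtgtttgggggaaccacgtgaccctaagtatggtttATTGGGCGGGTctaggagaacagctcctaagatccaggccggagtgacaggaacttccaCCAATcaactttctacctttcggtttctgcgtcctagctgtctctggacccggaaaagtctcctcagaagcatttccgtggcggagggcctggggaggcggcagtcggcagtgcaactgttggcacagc
Zfp949: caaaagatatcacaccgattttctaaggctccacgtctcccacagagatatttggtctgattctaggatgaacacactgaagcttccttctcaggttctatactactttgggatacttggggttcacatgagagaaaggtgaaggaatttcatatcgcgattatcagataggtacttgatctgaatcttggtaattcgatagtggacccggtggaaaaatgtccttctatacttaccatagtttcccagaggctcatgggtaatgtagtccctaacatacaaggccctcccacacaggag

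The shared word has 10 letters. Beside the windows of Zfp979, Zfp945 and Zfp994 it stood, among the members, in those of Zfp980 and Zfp982, whose probe sets were below the filter. It was found in 27 of 32851 windows of all genes (0.0822%), which belong to 26 genes, 10 on chromosome 4 and 5 on chromosome 17. Of these 26 genes, 11 have a numbered Zfp symbol and 13 were tested. The called ones were the 3 members from whose windows the word was taken, so their number is no result about the word. Zfp949 had none of the 3 words in its window. The CCAAT box was present in 71.4% of the member windows and 37.4% of all windows. The ETS core was present in 35.7% of the member windows and 16.9% of all windows. Some genes have several overlapping windows, and each window was counted. By gene, 24 of the 35 members with a window had the CCAAT box and 12 had the ETS core. The number of CG dinucleotides per window had a median of 8.5 in the members and 7.0 in all windows. A word match is a description of these letters and not a measured binding site.

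The windows also show how close some members are. Among 595 pairs of member genes the ungapped identity of the windows had a median of 33.5%, and 3 pairs exceeded 70%. Zfp942 and Zfp944 were identical at all but 1 of 275 shared positions (99.6%), Zfp979 and Zfp980 had 85.0% identity, and Zfp936 and Zfp975 had 83.3%. The pair from chromosome 17 is shown, with Zfp942 at chr17:21962415-21962714 and Zfp944 at chr17:22361351-22361650, both on the minus strand and without a match to any of the 3 words.
Zfp942: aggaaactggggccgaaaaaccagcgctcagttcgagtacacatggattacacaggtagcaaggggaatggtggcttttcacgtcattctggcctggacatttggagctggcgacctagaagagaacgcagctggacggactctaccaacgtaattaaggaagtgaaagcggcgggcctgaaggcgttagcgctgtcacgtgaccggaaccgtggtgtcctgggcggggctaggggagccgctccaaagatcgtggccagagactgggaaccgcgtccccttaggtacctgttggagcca
Zfp944: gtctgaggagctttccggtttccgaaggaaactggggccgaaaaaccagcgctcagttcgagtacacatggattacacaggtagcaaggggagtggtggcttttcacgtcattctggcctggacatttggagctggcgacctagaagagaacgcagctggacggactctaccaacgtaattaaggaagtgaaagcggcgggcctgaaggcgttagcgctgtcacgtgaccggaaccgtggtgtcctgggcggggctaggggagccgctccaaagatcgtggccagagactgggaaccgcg

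The array values of this pair were read side by side. The representative of Zfp942 (1455433_at) had 5.58, 5.72 and 5.58 in AKR_F1 and 5.66, 5.71 and 5.53 in DBA_F1, with full overlap and a 95% confidence interval of the difference from -0.20 to 0.19. That of Zfp944 (1425085_at) had 6.066, 6.039 and 5.998 in AKR_F1 and 5.81, 5.86 and 5.71 in DBA_F1, with no overlap and a difference of 0.24 ± 0.07 that was not called (limma adjusted p = 0.147). The other 2 sets of Zfp944, both below the filter, differed by 0.07 ± 0.09 and 0.15 ± 0.11 with overlapping groups. The intervals of the 2 representatives overlap (0.07 to 0.41 for Zfp944), and whether the genes differ from each other in their difference between the crosses was not tested. Zfp942 and Zfp943 are transcribed away from each other from starts 95 bases apart, so that their windows share 194 bases. The representative of Zfp943 (1434625_at) differed by 0.03 ± 0.07, with an interval from -0.13 to 0.19. A weak second probe set of Zfp942 (1454402_at) had 4.64, 4.26 and 3.76 in AKR_F1 and 3.71, 3.23 and 3.06 in DBA_F1. It did not overlap between the groups, but it lay below the filter and was not called in the fit without a filter (0.89 ± 0.24, limma adjusted p = 0.15).

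The tandem run on chromosome 17 held the most members. Of the 38 genes 11 map to chromosome 17, 7 to chromosome 7, and 4 each to chromosomes 4 and 8. In RefSeq order 9 of the 11 follow each other from Zfp948 to Zfp945 within a run of 38 genes, and Zfp952 and Zfp959 lie further along. Of the 9, 8 were tested and 2, Zfp994 and Zfp945, were called. By representative probe sets the difference was -0.03 for Zfp948, 0.38 for Zfp995, 0.00 for Zfp942 and 0.03 for Zfp943. It was 0.63 for Zfp994, 0.24 for Zfp944, -0.11 for Zfp946 and 0.91 for Zfp945. The 95% confidence intervals of Zfp995, Zfp994, Zfp944 and Zfp945 lay above 0, and those of Zfp948, Zfp942, Zfp943 and Zfp946 included 0. The other called set of Zfp945 was lower in AKR_F1 (-0.93). Zfp983, the second in order, was below the filter, and its 3 probe sets differed by -0.32, -0.28 and -0.27. Its brightest (1440992_at) had 4.36, 4.44 and 4.60 in AKR_F1 and 4.82, 4.75 and 4.78 in DBA_F1, which did not overlap and was not called without a filter (limma adjusted p = 0.18). Zfp983 was picked for mention after its values were seen.

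**Figure D3:**
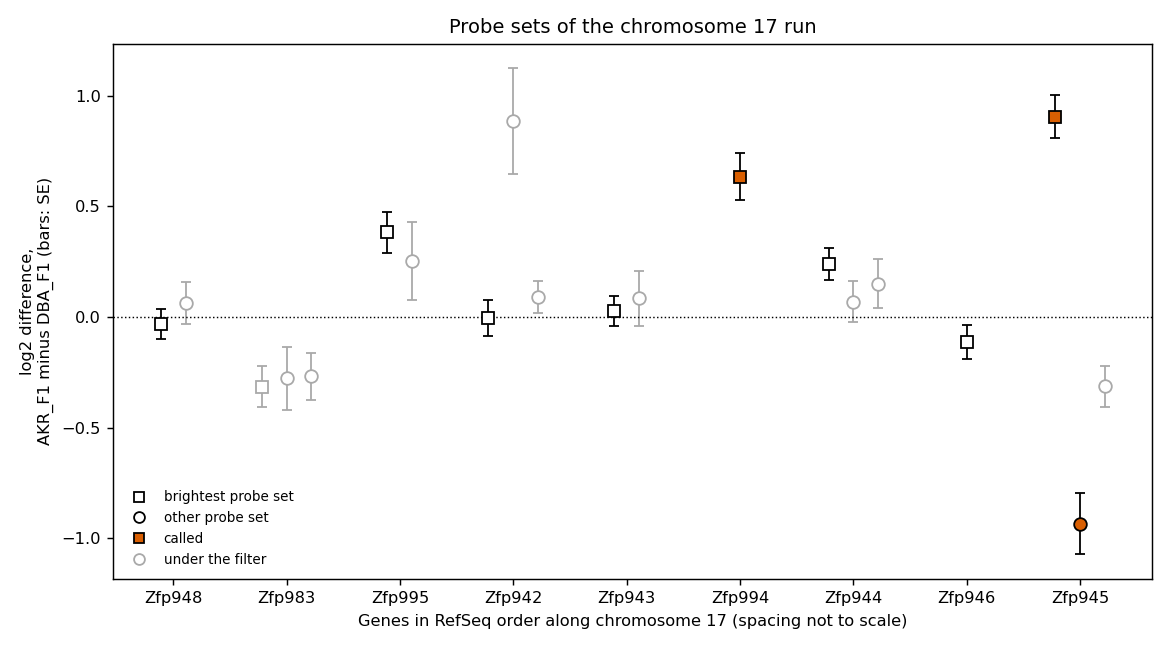
Log2 difference AKR_F1 minus DBA_F1 (y axis, bars are the SE) of every probe set of the 9 member genes that follow each other on chromosome 17, in RefSeq gene order (x axis, not to scale). Squares are the representatives, circles the other probe sets, orange marks called ones and grey outlines those below the filter. Zfp995, Zfp994, Zfp944 and the representative of Zfp945 lie above 0, the probe sets of Zfp983 lie below it, and Zfp945 has called probe sets on both sides.

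Genes near the called members were read from the same fit. The run holds 3 other tested genes, Zfp760, Zfp229 and Zfp758, which were not called (0.10, 0.03 and 0.33). The next tested gene after Zfp945, with 13 genes in between, is Zfp40, another zinc finger gene. It was called higher in AKR_F1 (0.65 ± 0.08, 6.95 against 6.31, limma adjusted p = 0.0133). For the 5 nearest tested genes on each side of Zfp979, 10 in all, differences ran from -0.41 to 0.29 and 0 were called by limma (3 had an unadjusted p under 0.05), with up to 79 genes in between on one side and up to 12 on the other. For the 5 on each side of Zfp949, with up to 20 and up to 74 genes in between, they ran from -0.39 to 0.24, also with 0 called (4 with such a p). Of the 10 around Zfp945, 2 were called, Zfp994 and Zfp40 (4 with such a p). Of the 10 around Zfp994, 2 were called, Zfp945 and Zfp40 (5 with such a p). Over all tested genes 2.48% were called and 19.1% had such a p, and these counts were not compared with those shares by a test.

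The remaining members with an unadjusted p under 0.05 were Zfp975, Zfp995, Zfp932, Zfp934 and Zfp944, and none of these 5 was called. In all, 9 of 29 tested members had such a p, as did 19.1% of all tested genes, and in 10 of 29 (34.5%) the groups did not overlap, against 24.2% of all tested genes. Zfp975, on chromosome 7, came nearest to a call. Its representative (1439295_x_at) had 5.60, 5.48 and 5.35 in AKR_F1 and 5.14, 4.76 and 4.75 in DBA_F1, a difference of 0.59 ± 0.13 (limma adjusted p = 0.072). The dimmer set (1460017_at), from the same source sequence, had 4.41, 4.68 and 4.53 in AKR_F1 and 3.81, 3.96 and 3.67 in DBA_F1. It was below the filter, and in the fit without a filter it differed by 0.72 ± 0.11 and was called (limma adjusted p = 0.0247), the only one of the 29 untested probe sets for which this held. Both Zfp975 sets were thus higher on all AKR_F1 arrays than on any DBA_F1 array.

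Zfp995, a zinc finger gene of the chromosome 17 run, had 5.69, 5.82 and 5.59 in AKR_F1 and 5.43, 5.24 and 5.29 in DBA_F1 (0.38 ± 0.09, limma adjusted p = 0.0938). Zfp932, on chromosome 5, had 6.26, 6.25 and 6.34 in AKR_F1 and 6.79, 6.55 and 6.55 in DBA_F1 (-0.35 ± 0.09, limma adjusted p = 0.0967). Zfp934, on chromosome 13, had 6.96, 6.98 and 6.79 in AKR_F1 and 6.62, 6.61 and 6.72 in DBA_F1 (0.26 ± 0.08, limma adjusted p = 0.137). In all of these representatives the groups did not overlap, with Zfp932 higher in DBA_F1 and the others higher in AKR_F1. The differences did not pass over all probe sets. Zfp995 and Zfp934 each have a dimmer set below the filter, in which the groups overlapped. It differed by 0.253 ± 0.175 for Zfp995 (1436330_x_at, from the same source sequence) and by 0.12 ± 0.12 for Zfp934 (1457079_at).

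Probe sets of a gene did not always have the same sign. Of the 5 genes with several tested probe sets, 4 had the same sign in all of them, and Zfp945 did not. Among sets below the filter, Zfp991 on chromosome 4 had a tested set (1451477_at) with 5.23, 5.40 and 5.47 in AKR_F1 and 5.02, 5.26 and 5.19 in DBA_F1. Its dimmer set (1424784_at), from the same source sequence, AV047635, had 3.73, 3.92 and 3.95 in AKR_F1 and 4.24, 4.20 and 3.97 in DBA_F1. The first differed by 0.21 ± 0.10 and the second by -0.27 ± 0.11, and neither was called. Zfp974 on chromosome 7 had 4.08, 4.41 and 4.34 in AKR_F1 and 3.87, 3.64 and 4.13 in DBA_F1 by 1 set (1441059_at, 0.40 ± 0.15), and -0.01 ± 0.10 by the other. Zfp982 on chromosome 4 had 3.75, 3.76 and 3.87 in AKR_F1 and 3.66, 3.62 and 3.41 in DBA_F1 by its brightest set (1459260_at, 0.23 ± 0.09), while its other sets differed by -0.05 and -0.17. All sets of Zfp974 and Zfp982 lay below the filter, where low signals have no stated background.

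The other 20 tested members had differences from -0.32 (Zfp939) to 0.29 (Zfp963), 13 positive and 7 negative, with adjusted p of 0.297 or more by limma. Their 95% confidence intervals reached from -0.69 at the lowest to 0.65 at the highest over these genes. The members with the highest mean signals among those tested were Zfp949 (7.52), Zfp943 (7.44), Zfp945 (7.44) and Zfp931 (6.92), and those with the lowest were Zfp938 (4.73), Zfp963 (4.76), Zfp957 (4.88) and Zfp937 (4.91). Signals of different probe sets do not rank transcripts by amount.

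**Figure D4:**
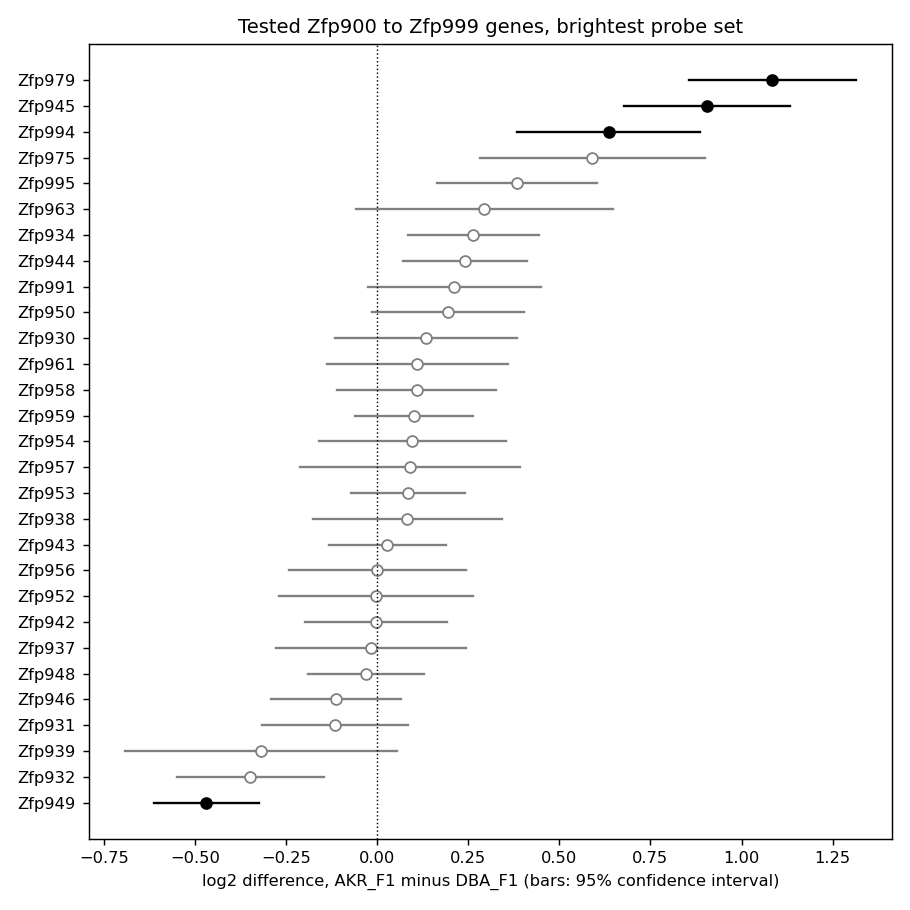
Log2 difference AKR_F1 minus DBA_F1 (x axis) with its 95% confidence interval for the representative probe set of each of the 29 tested Zfp900 to Zfp999 genes (y axis), filled black where called at an adjusted p under 0.05. Zfp979, Zfp945 and Zfp994 stand at the upper end and Zfp949 at the lower end, and most intervals of the other genes include 0.

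The genes through which KRAB zinc finger proteins act were read beside them, since a protein of this family silences chromatin only with its partners. Of 32 listed genes 29 were measured and 28 tested, and 0 were called by their representatives in limma (3 had an unadjusted p under 0.05), with 22 positive differences, 6 negative ones and a median of 0.05. Over all tested genes 2.48% were called, 19.1% had such a p and the median was 0.02, so these counts are no result about the pathway. The corepressor Trim28 (1456308_x_at) had 9.88, 9.86 and 9.86 in AKR_F1 and 9.73, 9.73 and 9.71 in DBA_F1. This difference was small at 0.14 ± 0.04 and was not called (limma adjusted p = 0.123), although the groups did not overlap. The methyltransferase Setdb1 differed by 0.15 ± 0.06 (limma adjusted p = 0.269). Of the 60 tested probe sets of the list, 1 was called (2.62% over all tested probe sets), a set of the heterochromatin protein gene Cbx1 (1436266_x_at), with 7.870, 7.999 and 8.002 in AKR_F1 and 7.66, 7.37 and 7.51 in DBA_F1 (0.45 ± 0.09, limma adjusted p = 0.0494). The brightest Cbx1 set (1433718_a_at) differed by 0.04 ± 0.06. Of its other tested sets, 1422935_x_at differed by 0.30 ± 0.09 without overlap and 1431773_at by -0.24 ± 0.14 with overlap. Neither of them was called.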

How the data were processed

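Total RNA was labelled with biotin by the standard Affymetrix protocol, per the labels. The table deposited by the authors gives log2 signals. MAS5 and RMA are named in the submitters' processing notes, without versions or which of them made it. Array medians lay between 5.46 and 5.49, so the values were used as deposited. Having only 3 arrays per group limits the precision. The 64 control probe sets were removed, and then the dimmest 40% of the rest (means of 4.72 or less). By the platform annotation, 34945 probe sets had 1 symbol, 932 several and 9160 none. Gene order came from a RefSeq table of GRCm38.p6, in which all 38 members were found by gene ID. The fit used limma 3.58.1 in R 4.3.3 (lmFit, eBayes with trend, two-sided, group as the only term, 4 residual and 3.06 prior degrees of freedom) with Benjamini-Hochberg adjustment over all tested probe sets. It was tested on simulated data. Probe sets below the filter take their values from the same fit without it. Members and lists, including KRAB pathway and marker genes, were chosen with earlier results of these data known. Genes are named with values if called, if their representative had an unadjusted p under 0.05, or if their probe sets differed in call or sign with such a p. The 4 brightest and 4 dimmest tested members, called neighbours, Trim28 and Setdb1 are named too. Alternatives were other filters, normalizations, variance models, weights and probe set summaries, a replicate block and leaving out arrays.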

Additional observations from a re-analysis of the deposited data

How the results depend on the processing

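The member count of 4 genes and 6 probe sets ran from 2 to 4 and from 2 to 6 with 1 array left out. The low counts came without AKR_F1 replicate 1 (2 genes, 2 probe sets), AKR_F1 replicate 2 (2 and 3) and DBA_F1 replicate 2 (2 and 3), and fewer of all probe sets were called in these fits as well (198, 199 and 249, against 707). The other numbered Zfp genes ran from 1 to 6 called, and the KRAB pathway genes stayed at 0. With AKR_F1 replicate 3 alone against DBA_F1, where its spread is assumed to be that of DBA_F1 and 85 probe sets in all were called, 0 member probe sets, 0 member genes and 0 other Zfp genes were called. A 60% filter (level 6.26) tested only 7 member genes and not Zfp979 or Zfp994. It gave 2 called member genes, 2 other Zfp genes and a median difference of 0.028. The most variable probe set of each gene gave 1 KRAB pathway call, and it turned Zfp945 to -0.93. The mean of the probe sets turned Zfp945 to -0.014. Array weights called Zfp975 (0.65, adjusted p = 0.0337) and Zfp995 (0.42, adjusted p = 0.0486), and leaving out DBA_F1 replicate 1 called Zfp975 (0.72, adjusted p = 0.0328). The cause of these changes was not tested. Deviations of same-numbered arrays from their group means had r of 0.31, -0.23 and -0.05 for numbers 1 to 3. For arrays with different numbers r ran from -0.275 to 0.312. With 3 arrays per group, these values cannot settle whether same-numbered arrays were paired, which is unknown. The replicate block kept 4 member genes and 6 probe sets called, with 3 other Zfp genes called and 539 calls over all probe sets. No other alternative that was run, among quantile normalization, median centring, no filter and changed variance models, moved these counts by over 1.5 times.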

Other observations

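Of the 7 probe sets annotated to several genes including one named Zfp900 to Zfp999, 3 were tested and 1 was called. That set (1449972_s_at) had group means of 6.24 in AKR_F1 and 6.73 in DBA_F1, a difference of -0.49 ± 0.07 (SE, n = 3 per group, limma adjusted p = 0.0172), and the groups did not overlap. It names no single gene and was left out of all counts of members.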
